A study of Mus musculus with 6 samples.

Results

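The immunoglobulin constant region genes encode the parts of antibody chains that do not bind antigen. The set described here was chosen by gene symbol from the deposited count table and holds 10 of the 55487 genes listed. It has 7 heavy-chain genes, Ighm, Ighd, Ighg1, Ighg2b, Ighg2c, Ighg3 and Igha, the kappa light-chain gene Igkc, and the lambda light-chain genes Iglc1 and Iglc2. Messenger RNA was sequenced from mouse bone marrow cells labelled as acute lymphoblastic leukaemia and sorted for GFP and for B220, a CD45 form found on the surface of B-lineage cells. The 6 libraries were 3 KO (replicates 2, 3 and 4), carrying a knockout of the microRNA miR-182, and 3 WT (replicates 1, 3 and 4), wild type for miR-182, all labelled Day 0. The series describes a B-lineage leukaemia induced by BCR-ABL (P190) and a T-lineage leukaemia induced by Notch. The sort places all 6 libraries with the B-lineage cells, and KO and WT libraries share the transplantation and the sort, with mice chosen at 6 to 8 weeks of age. The labels do not say whether each library is a separate mouse or donor, so p-values measure only the spread between these libraries.

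A B cell joins V, D and J segments into 1 heavy-chain exon, which is first read together with Ighm to make IgM and, by alternative splicing, with Ighd to make IgD. Class switch recombination can then bring a gamma, epsilon or alpha constant gene next to that exon. Before such a switch, the constant gene that will be used is itself transcribed from its own upstream promoter, giving a germline transcript with no V segment. Counts per gene do not separate germline transcripts from those of a switched heavy chain, nor secreted from membrane forms. Mouse pre-B lines transformed by Abelson virus are known for transcription of, and switching to, the gamma 2b gene. In mice most B cells use kappa light chains, and light chains are rearranged after heavy chains. In bulk libraries such as these, fewer cells using a gene and less RNA per cell cannot be told apart.

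The heavy-chain members lie in 1 run on the minus strand of chromosome 12 of GRCm38, the build of the deposited table. In the direction of transcription the order is Ighm (chr12:113418558-113422730), Ighd (chr12:113406604-113416324), Ighg3 (chr12:113356224-113361232), Ighg1 (chr12:113325240-113330523), Ighg2b (chr12:113302965-113307933), Ighg2c (chr12:113285325-113288932) and Igha (chr12:113254830-113260236). Igkc stands on the plus strand of chromosome 6 (chr6:70726435-70726966), and Iglc1 (chr16:19061618-19062071) and Iglc2 (chr16:19198396-19200351) on the minus strand of chromosome 16. Several of these genes are near copies of each other, which matters for reading counts that differ between them. The first exons of Ighg2b (chr12:113307643-113307933, minus strand) and Ighg2c (chr12:113288642-113288932, minus strand) are shown because both genes differed between the genotypes. Capitals mark the bases at which the copies differ.
Ighg2b: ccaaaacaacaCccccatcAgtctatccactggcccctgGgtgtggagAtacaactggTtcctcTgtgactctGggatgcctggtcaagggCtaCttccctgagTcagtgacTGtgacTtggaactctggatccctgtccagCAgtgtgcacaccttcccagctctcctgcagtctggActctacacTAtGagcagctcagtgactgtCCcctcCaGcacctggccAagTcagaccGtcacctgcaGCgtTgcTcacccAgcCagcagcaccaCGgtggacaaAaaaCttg
Ighg2c: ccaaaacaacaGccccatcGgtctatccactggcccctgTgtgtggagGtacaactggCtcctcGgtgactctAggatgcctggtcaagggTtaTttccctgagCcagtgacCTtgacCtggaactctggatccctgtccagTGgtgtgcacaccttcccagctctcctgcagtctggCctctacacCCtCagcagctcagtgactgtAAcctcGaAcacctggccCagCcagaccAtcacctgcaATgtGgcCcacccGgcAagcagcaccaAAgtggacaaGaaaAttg
These 291-base exons differ at 36 positions, an identity of 87.6%, and the longest run without a difference is 34 bases. Over whole annotated transcripts, 70 of the 1276 different 50-base words of Ighg2c, 5.49%, also occur in Ighg2b. In Ighg2b, 4.15% of the words occur in another constant gene. Ighm, Ighd, Igha, Igkc and Iglc1 share no 50-base word with another constant gene. Stretches of 120 and 119 bases are shown for Iglc2 (chr16:19198734-19198853) and its near copy Iglc3 (chr16:19065563-19065681), both on the minus strand. They run from the start of the constant exon of Iglc2 and of the single annotated exon of Iglc3. These genes are shown because their counts are the least separable of the lambda genes.
Iglc2: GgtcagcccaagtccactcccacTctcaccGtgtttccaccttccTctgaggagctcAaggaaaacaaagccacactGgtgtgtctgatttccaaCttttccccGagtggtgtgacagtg
Iglc3: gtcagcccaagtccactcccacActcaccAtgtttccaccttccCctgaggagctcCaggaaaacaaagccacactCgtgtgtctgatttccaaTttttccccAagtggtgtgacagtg
These stretches have an identity of 93.3%, with 8 differing positions of which 1 is an extra base in Iglc2, and a longest identical run of 22 bases. Of the 50-base words of Iglc2, 7.65% also occur in Iglc3. How the authors' counting treated reads that fit several genes is not given in the sources used here, so the split between Iglc2 and Iglc3 is uncertain.

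Library totals were 20527487 to 29237035 counts in KO and 17704382 to 23311040 counts in WT, and 14481 genes passed the filter on low counts. Normalised levels are counts scaled to TMM-adjusted library totals of 1e+06 (CPM), with the SD over 3 libraries where a mean is given. Each log2 fold change is of KO over WT and carries its standard error (SE), and adjusted p-values come from the edgeR quasi-likelihood test over all 14481 genes. Mir182, the targeted gene, is listed at 0 counts in all 6 libraries, so these counts do not check the genotype. At an adjusted p under 0.05 the test called 52.5% of all genes, 23.9% higher in KO and 28.5% lower. The defining B-lineage markers were present in every library, with a summed level of 5520 to 6234 CPM in KO and 5862 to 6205 CPM in WT over 8 genes. Neutrophil markers were called lower in KO for 17 of 17 genes, with summed levels of 1396 to 7013 CPM in KO and 16882 to 41184 CPM in WT. T cell markers were called lower for 4 of 6 tested of 9, with summed levels of 12.8 to 17.6 CPM in KO and 53.4 to 110.7 CPM in WT. Lck held most of each sum, at 9.23 to 13.6 CPM in KO and 43.9 to 105.2 CPM in WT. The other genes called, Cd3d, Cd4 and Cd8a, stood at 4.67, 6.49 and 6.06 CPM in WT replicate 1. In WT replicates 3 and 4 they were at most 1.77 CPM. Leaving out 1 library gave 13 to 17 of 17 neutrophil genes called lower. T cell genes called lower were 1 of 9 tested without KO replicate 3, and 2 of 9 without KO replicate 2 or KO replicate 4. They were 3 of 7 tested without WT replicate 1, 8 of 9 without WT replicate 3 and 4 of 7 without WT replicate 4. The part of these other cell types in the results below was not tested. The leading heavy-chain V segment was Ighv2-5 in every KO library and Ighv5-16 in every WT library, so genotype and leukaemic clone cannot be told apart. Clonality itself was not measured, and the leading segment held 25.8% to 38.3% of the heavy V counts of a library.

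Ighg2b was the constant gene that set the genotypes apart, with a fitted level 46.5-fold higher in KO libraries. Ighg2c was also higher in KO, by 3.21-fold, and no member was called lower by edgeR, 0 also at an unadjusted p under 0.05, against 0 with DESeq2 and limma-trend and 1 with limma-voom. All 10 members passed the filter, and 2 of 10 were called higher, beside 23.9% of all genes tested. KO libraries lay above all WT libraries for 3 members, Ighm, Ighg2b and Ighg2c, beside 30.8% of all genes tested. The groups overlapped for the other 7, whereas 64.0% of all genes tested did not overlap in either direction. The share called higher is near the background of this comparison. The KO libraries lay below all WT libraries for 0 of 10 members, beside 33.2% of all genes tested. By log2 fold change Ighg2b ranked 38 of 14481 tested genes, within the top 0.262%. The median log2 fold change was 0.080 over the members and −0.0015 over all tested genes.

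**Figure D1:**
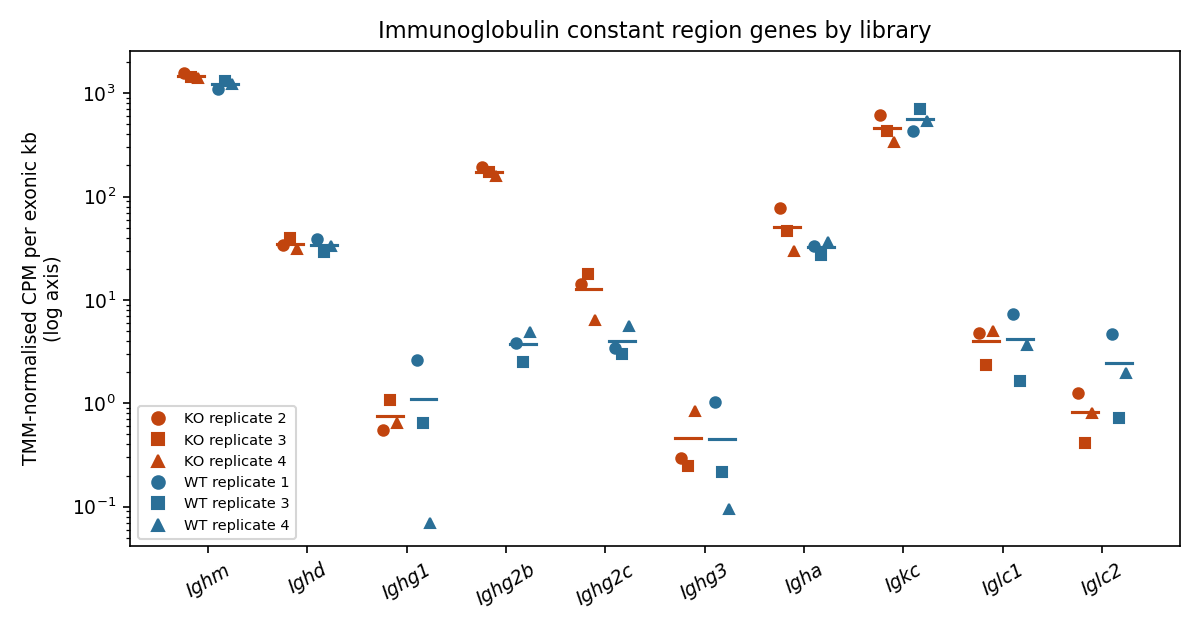
Level of each constant region gene in every library, in TMM-normalised CPM per kilobase of exon on a log axis; points are libraries, KO left of WT, and bars are group means. Ighg2b averages 173.2 in KO and 3.75 in WT, while the KO and WT points of Ighd, Igkc and Iglc1 overlap.

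Per kilobase of the authors' exonic length, which allows levels of different genes to be compared, Ighm was the highest member in all 6 libraries and Igkc the next. The order below Ighm depends on the length assumed. For Ighg2b the exonic length is 2566 bases and the shortest annotated transcript 1114 bases, while Igkc has 532 bases for both. With the shortest lengths Igkc is not above Ighg2b in KO replicate 4. With the exonic lengths Ighg2b ranked 3 in every KO library, against 7 in WT replicate 1 and 6 in WT replicates 3 and 4. The mean levels per kilobase in KO were 1472 CPM for Ighm, 461.3 CPM for Igkc and 173.2 CPM for Ighg2b. Igha, at 51.2 CPM, and Ighd, at 34.7 CPM, came next in KO and changed places between libraries. Ighg2c, at 12.8 CPM, and Iglc1, at 4.04 CPM, kept their places below these in every KO library, while Iglc2, Ighg1 and Ighg3, with means of 0.466 to 0.825 CPM, did not keep an order. In WT the means per kilobase were 1217 CPM for Ighm, 559.4 CPM for Igkc, 33.9 CPM for Ighd and 32.4 CPM for Igha. Ighd and Igha changed places among the WT libraries too. Iglc1, Ighg2c, Ighg2b and Iglc2, with WT means of 2.47 to 4.21 CPM per kilobase, overlapped with one another.

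Ighm encodes the mu chain of IgM, the isotype made first. Ighm stood at 2650.0, 2454 and 2396 CPM in KO replicates 2, 3 and 4, against 1869, 2247 and 2086 CPM in WT replicates 1, 3 and 4. All 3 KO libraries lay above all 3 WT libraries. The log2 fold change was 0.27 (SE 0.11), which missed the threshold in edgeR (adjusted p = 0.0698). The call depended on the procedure: the authors' deposited table gives Ighm a log2 fold change of 0.29 with an FDR of 0.016. Removing WT replicate 3 also moved it past the threshold (log2 fold change 0.34, edgeR adjusted p = 0.0238). Ighd, whose delta chain is made from the same primary transcript, stood at 60.9, 71.1 and 56.0 CPM in KO replicates 2, 3 and 4, against 70.9, 52.1 and 60.5 CPM in WT replicates 1, 3 and 4. The groups overlapped, and the log2 fold change of Ighd was 0.036 (SE 0.14, edgeR adjusted p = 0.838). As a percentage of Ighm counts, Ighd counts were 2.30%, 2.90% and 2.34% in KO replicates 2, 3 and 4, and 3.80%, 2.32% and 2.90% in WT replicates 1, 3 and 4.

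The gamma genes encode the IgG subclasses, and Ighg2b is the IgG2b gene. Ighg2b had 10288, 12405 and 12354 counts in KO replicates 2, 3 and 4, against 161, 147 and 221 counts in WT replicates 1, 3 and 4. In normalised levels that is 490.8, 439.6 and 402.7 CPM in KO and 9.76, 6.47 and 12.6 CPM in WT. The lowest KO library was far above the highest WT library, and the libraries of each genotype lay close together. The means were 444 ± 44.2 CPM in KO and 9.62 ± 3.08 CPM in WT (SD, n = 3 each), a log2 fold change of 5.54 (SE 0.25, edgeR adjusted p = 1.86e-05). The authors' deposited table gives Ighg2b a log2 fold change of 5.56. Relative to the mu gene, Ighg2b counts were 18.5%, 17.9% and 16.8% of Ighm counts in KO replicates 2, 3 and 4, against 0.522%, 0.288% and 0.605% in WT replicates 1, 3 and 4.

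Ighg2c encodes IgG2c, the subclass that some laboratory strains carry in place of IgG2a. Ighg2c stood at 17.5, 21.4 and 7.73 CPM in KO replicates 2, 3 and 4, against 4.12, 3.65 and 6.80 CPM in WT replicates 1, 3 and 4. The groups did not overlap, but KO replicate 4 was only just above WT replicate 4. Means were 15.5 ± 7.06 CPM in KO and 4.86 ± 1.70 CPM in WT (SD, n = 3 each), a log2 fold change of 1.68 (SE 0.41, edgeR adjusted p = 0.0128). Ighg2c counts were 3.56%, 4.88% and 1.92% of Ighg2b counts in KO, against 42.2%, 56.5% and 53.8% in WT. Of the 50-base words of Ighg2c, 5.49% also occur in Ighg2b, and the part of Ighg2b reads in the Ighg2c counts was not tested.

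Ighg1 and Ighg3, the IgG1 and IgG3 genes, had few counts. Ighg1 had 29, 76 and 49 counts in KO replicates 2, 3 and 4, against 107, 36 and 3 counts in WT replicates 1, 3 and 4. WT replicate 1 alone carried most of the WT counts, and without it the log2 fold change of Ighg1 went to 1.03, against −0.51 (SE 0.91, edgeR adjusted p = 0.659) with all libraries. Ighg3 had 15, 17 and 63 counts in KO and 41, 12 and 4 counts in WT, and its log2 fold change was 0.12 (SE 0.83, edgeR adjusted p = 0.909). For both genes the SD over the WT libraries exceeded the difference between the genotype means. Igha encodes the alpha chain of IgA and lies at the far end of the locus. Igha stood at 196.7, 118.3 and 75.0 CPM in KO replicates 2, 3 and 4, against 85.0, 69.6 and 92.1 CPM in WT replicates 1, 3 and 4. KO replicates 2 and 3 were above every WT library while KO replicate 4 was inside the WT range. The log2 fold change of Igha was 0.66 (SE 0.32, edgeR adjusted p = 0.122). Without KO replicate 4 it was 0.96 (edgeR adjusted p = 0.0174), and without KO replicate 2 it was 0.27 (edgeR adjusted p = 0.343). The authors' deposited table gives Igha a log2 fold change of 0.68 with an FDR of 0.0458. Outside the chosen members, the IgE gene Ighe had 1, 0 and 1 counts in KO and 1, 0 and 0 counts in WT.

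**Figure D2:**
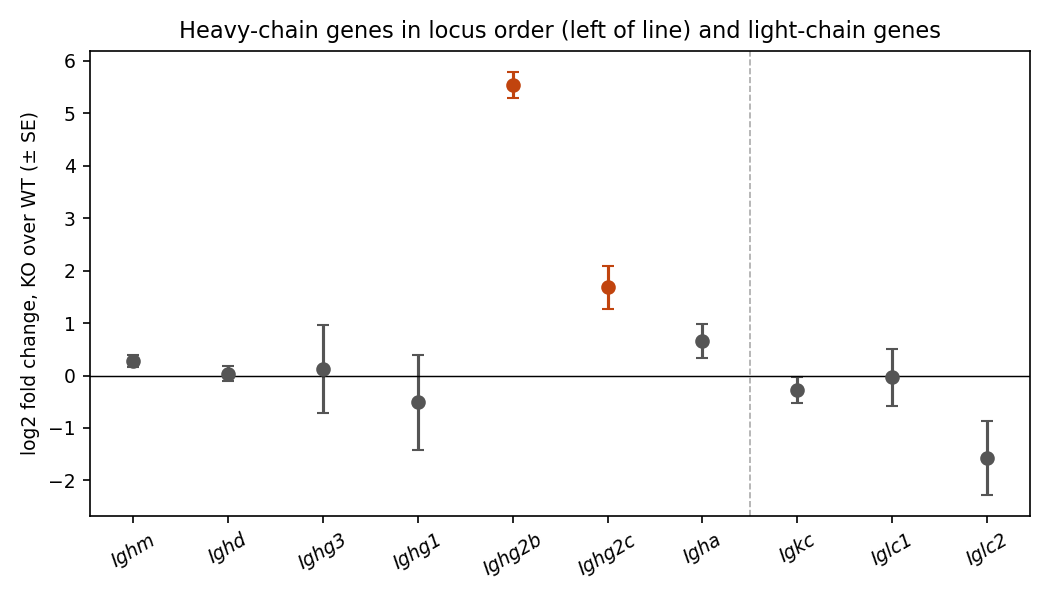
Log2 fold change, KO over WT, of the 10 constant region genes with its standard error as bars, from the edgeR fit; the heavy-chain genes stand in locus order left of the dashed line, the horizontal line marks no difference, and orange marks genes called. Ighg2b at 5.54 and Ighg2c at 1.68 are the genes called, both higher in KO, and Iglc2 has the lowest estimate at −1.57.

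Isotype composition was read as each gene's share of the counts of the 7 heavy-chain members within a library. IgM made up 77.5%, 79.0% and 81.5% of heavy-chain counts in KO replicates 2, 3 and 4, against 91.3%, 94.4% and 92.4% in WT replicates 1, 3 and 4. Ighg2b made up 14.4%, 14.1% and 13.7% in KO, with exact 95% intervals between 13.5% and 14.6%. In WT it made up 0.477%, 0.272% and 0.559%, with exact 95% intervals between 0.230% and 0.637%. Ighg2b therefore took the place of second most counted heavy-chain gene in every KO library, a place that Igha held in every WT library. Igha made up 5.76%, 3.81% and 2.55% in KO and 4.15%, 2.92% and 4.08% in WT, with the groups overlapping. Ighd made up 1.78%, 2.29% and 1.91% in KO and 3.47%, 2.19% and 2.68% in WT, again with overlap. Ighg2c was at most 0.690% in KO and 0.301% in WT. Ighg1 was at most 0.0867% in KO and 0.317% in WT, and Ighg3 at most 0.0698% in KO and 0.121% in WT.

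**Figure D3:**
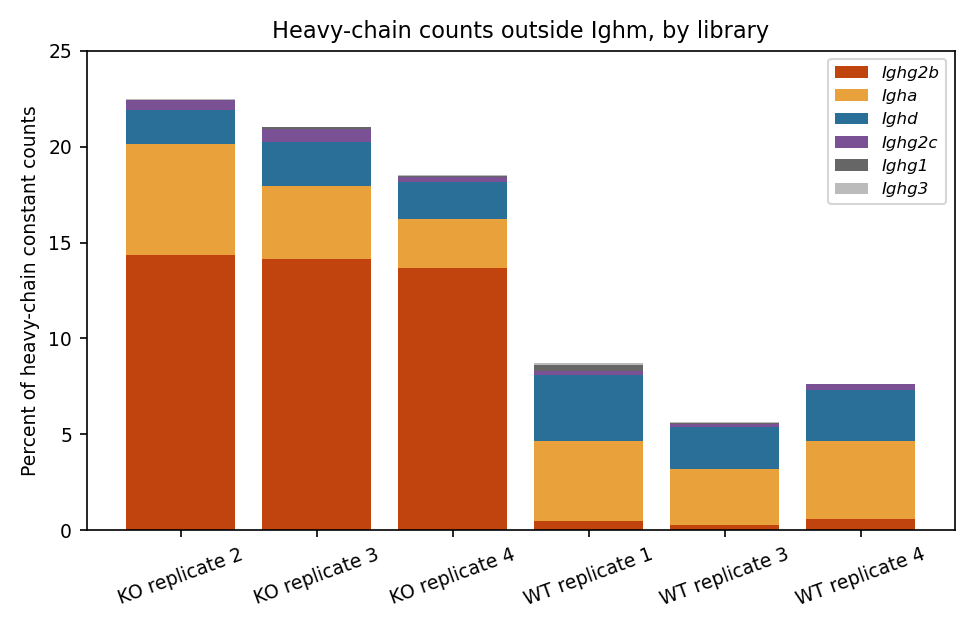
Share of heavy-chain counts taken by each isotype gene other than Ighm in each library, as stacked bars in percent with the KO libraries left of the WT libraries. The Ighg2b band covers 13.7% to 14.4% in the KO libraries and at most 0.559% in the WT libraries.

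The gamma and alpha genes together, the isotypes downstream of Ighd, made up 20.7%, 18.7% and 16.6% of heavy-chain counts in KO, against 5.27%, 3.44% and 4.96% in WT. The means were 18.7% ± 2.03 in KO and 4.55% ± 0.979 in WT (SD, n = 3 each), with no overlap (two-sided exact permutation p = 0.1, the smallest that 3 against 3 libraries allow; 0.15 after Benjamini-Hochberg adjustment over 6 measures). The IgM share was 79.3% ± 1.99 in KO and 92.7% ± 1.58 in WT, also without overlap (exact permutation p = 0.1, adjusted 0.15). The IgD share was 1.99% ± 0.263 in KO and 2.78% ± 0.644 in WT (exact permutation p = 0.2, adjusted 0.24). Within the 4 gamma genes, Ighg2b alone held 96.2%, 94.7% and 97.3% of counts in KO, against 42.7%, 52.9% and 63.7% in WT. Dividing each gene's counts by its exonic length lowered the Ighg2b share to between 9.59% and 10.2% in KO and between 0.182% and 0.376% in WT. Using the shortest annotated transcript instead gave 17.1% to 17.7% in KO and 0.353% to 0.720% in WT. The size of the share thus depends on the length assumed, and the separation of the groups was present under each.

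Igkc encodes the constant part of the kappa chain. Igkc stood at 328.3, 228.4 and 179.5 CPM in KO replicates 2, 3 and 4, against 230.2, 377.5 and 285.0 CPM in WT replicates 1, 3 and 4. The groups overlapped, and the log2 fold change was −0.28 (SE 0.25, edgeR adjusted p = 0.385). Lambda counts were few. Iglc1 had 46, 30 and 69 counts in KO and 55, 17 and 29 counts in WT, with a log2 fold change of −0.036 (SE 0.54, edgeR adjusted p = 0.96). Iglc2 had 16, 7 and 15 counts in KO and 47, 10 and 21 counts in WT, with a log2 fold change of −1.57 (SE 0.70, edgeR adjusted p = 0.0974). Removing WT replicate 3 brought Iglc2 past the threshold (log2 fold change −2.04, edgeR adjusted p = 0.0169), and removing WT replicate 1 moved it to −0.71 (edgeR adjusted p = 0.358). The lambda gene Iglc3, which is no member, had 26, 34 and 33 counts in KO and 90, 119 and 9 counts in WT (log2 fold change −1.67, SE 0.70, edgeR adjusted p = 0.082). Without WT replicate 4 the log2 fold change of Iglc3 was −2.19 (edgeR adjusted p = 0.00155). The antisense gene 2010309G21Rik spans Iglc1 and Iglc3 on the plus strand of chromosome 16, and 47 of its 50-base words, read on the other strand, occur in Iglc3, against 0 in Iglc1. It fell in KO, with 13, 6 and 6 counts in KO and 23, 30 and 15 counts in WT (log2 fold change −1.86, SE 0.47, edgeR adjusted p = 0.0141). Whether strand was used in counting is not stated, so reads from the stretch that 2010309G21Rik and Iglc3 share cannot be told apart.

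Kappa made up 99.1%, 99.4% and 98.5% of light-chain counts in KO replicates 2, 3 and 4, against 97.4%, 99.7% and 99.0% in WT replicates 1, 3 and 4. The ratio of kappa counts to lambda counts (Igkc over Iglc1 plus Iglc2) was 111.0, 174 and 65.6 in KO, against 37.2, 318 and 99.8 in WT. The WT libraries spanned the whole range of the KO libraries. These ratios rest on 62, 37 and 84 lambda counts in KO and on 102, 27 and 50 lambda counts in WT. On the log2 scale the ratio averaged 6.76 ± 0.71 in KO and 6.72 ± 1.55 in WT (SD, n = 3 each), a difference of 0.034 (two-sided exact permutation p = 1.0, adjusted 1.0). Counting Iglc3 as lambda changed the ratios to 78.2, 90.8 and 47.1 in KO and 19.8, 58.8 and 84.6 in WT, and the groups still overlapped. The log2 difference was then 0.59 (two-sided exact permutation p = 0.6).

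**Figure D4:**
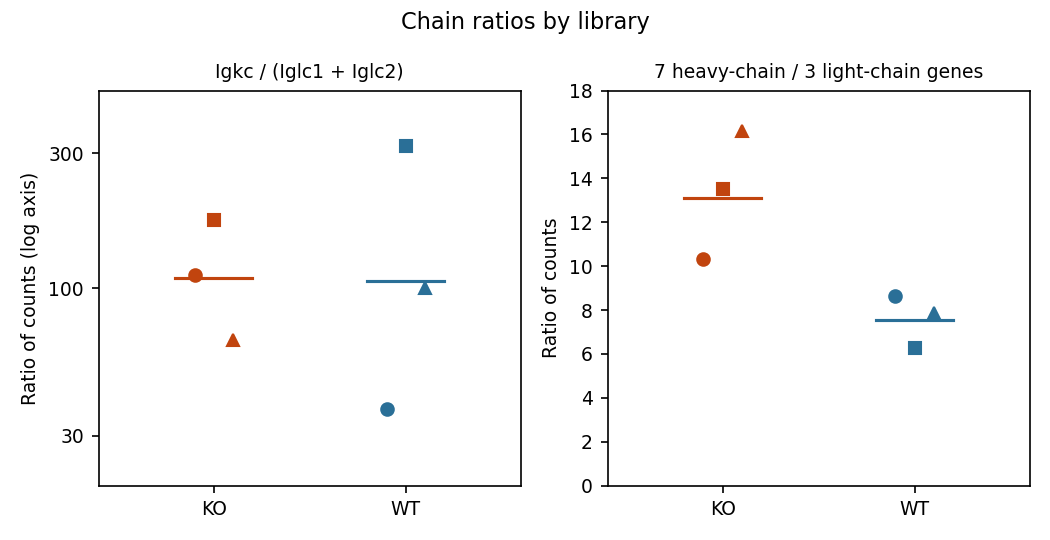
Ratio of kappa to lambda counts and of heavy-chain to light-chain counts in each library, the first on a log axis and the second on a linear axis from 0, with KO left of WT and bars at the geometric means; circles are KO replicate 2 and WT replicate 1, squares replicates 3 and triangles replicates 4. The kappa to lambda ratios overlap, while the heavy to light ratios are 10.3 to 16.1 in KO and 6.29 to 8.66 in WT.

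Heavy-chain counts outnumbered light-chain counts by 10.3, 13.5 and 16.1 times in KO replicates 2, 3 and 4, against 8.66, 6.29 and 7.84 times in WT replicates 1, 3 and 4. The groups did not overlap, and the log2 ratio averaged 3.71 ± 0.32 in KO and 2.91 ± 0.24 in WT (SD, n = 3 each; exact permutation p = 0.1, adjusted 0.15). Per exonic kilobase the ratios were 3.01, 3.98 and 4.77 in KO and 2.66, 1.95 and 2.42 in WT. All 10 members together took 0.383%, 0.350% and 0.328% of each KO library, against 0.213%, 0.269% and 0.249% of each WT library. That share averaged 0.354% ± 0.0277 in KO and 0.244% ± 0.0286 in WT (SD, n = 3 each; exact permutation p = 0.1, adjusted 0.15). Neutrophil marker levels went the opposite way from this share of the library, lower in KO for 17 of 17 genes. Their part in it was not tested.

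Genes that act on or with the constant genes were read from lists of pathway members. The number called in each list stands beside 23.9% called higher and 28.5% called lower over all genes tested, 52.5% in either direction. Among 17 class switch genes in the table, 6 were called higher in KO, 1 lower and 10 neither, with a median log2 fold change of 0.20 beside −0.0015 over all tested genes. Exo1, an exonuclease that acts in mismatch repair, rose by a log2 fold change of 0.58 (SE 0.13, edgeR adjusted p = 0.00932). Rif1, which limits resection of broken DNA ends, rose by 0.40 (SE 0.12, edgeR adjusted p = 0.0244). Prkdc, the catalytic subunit of the DNA-dependent kinase of end joining, fell by 0.33 on the log2 scale (SE 0.08, edgeR adjusted p = 0.0122). Exo1 passed the threshold under all 14 alternatives tried, of which the fit on reads recovered from CPM could only repeat the main fit. The number of class switch genes called higher fell to 2 without KO replicate 2, without KO replicate 4 or without WT replicate 4. Rif1 lost its call without any 1 of those 3 libraries, and with a block for the replicate number (edgeR adjusted p = 0.0623). Prkdc lost its call without KO replicate 2 or KO replicate 3, with no filter (edgeR adjusted p = 0.0679) and with limma-trend (adjusted p = 0.0509).

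The list of regulators of the immunoglobulin loci held transcription factors and the recombinase genes Rag1 and Rag2. Its genes moved in both directions, with 7 of 12 called higher in KO, 4 lower and 1 neither. Among those called lower were Rag1 (log2 fold change −1.10, edgeR adjusted p = 0.0311) and Rag2 (−1.43, edgeR adjusted p = 0.0196), whose KO and WT levels overlapped. Ikzf3, which encodes the B-cell factor Aiolos, averaged 346 ± 37.5 CPM in KO and 107 ± 13.4 CPM in WT (log2 fold change 1.70, SE 0.12, edgeR adjusted p = 0.000135). Ikzf1, which encodes Ikaros, rose by a log2 fold change of 0.48 (edgeR adjusted p = 0.00227), and Pax5, which holds cells to the B lineage, by 0.59 (edgeR adjusted p = 0.00325). Spi1, which encodes PU.1 and is also made in neutrophils, fell by 1.17 on the log2 scale (SE 0.20, edgeR adjusted p = 0.00308). The count called lower was 1 instead of 4 without KO replicate 2, without KO replicate 3 or without WT replicate 4.

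**Figure D5:**
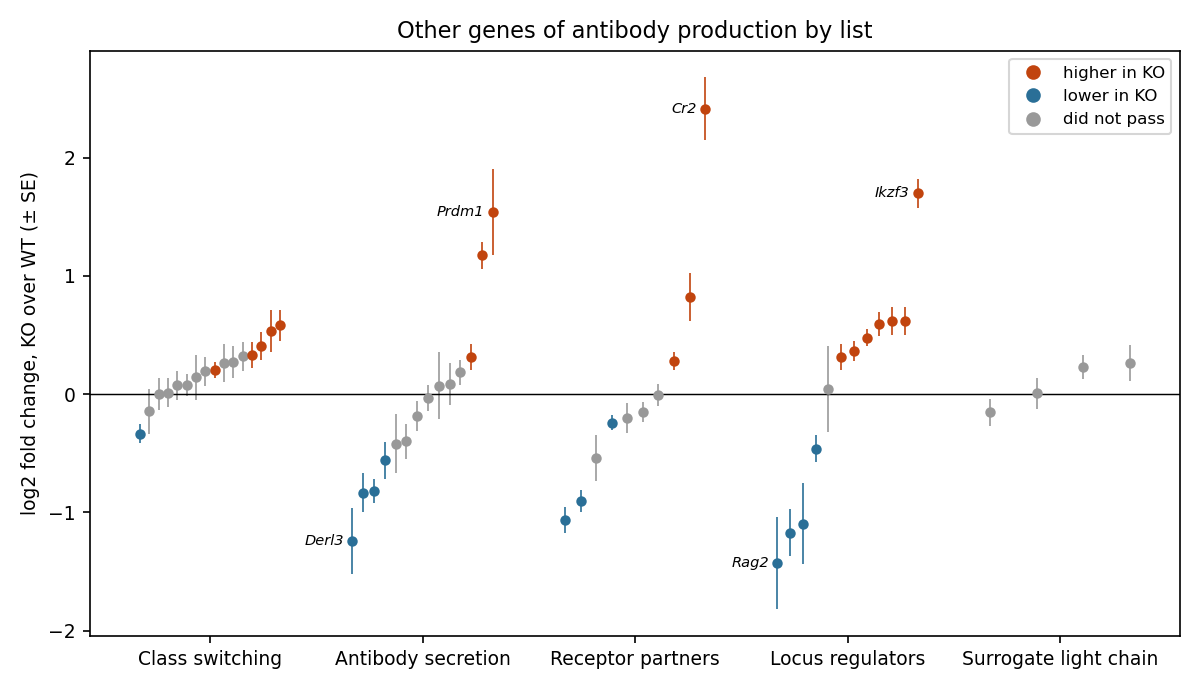
Log2 fold change, KO over WT, of the genes in the pathway lists, one column of points per list with standard errors as bars, from the edgeR fit; orange points are called higher in KO, blue points lower, and grey points neither. Cr2 at 2.41 and Ikzf3 at 1.70 are labelled among the genes called higher, genes not reported here are left out, and the surrogate light chain genes lie near 0.

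The surrogate light chain pairs with mu before a light chain is made. Of its 4 genes edgeR called 0 at an adjusted p under 0.05 and 0 at an unadjusted p under 0.05, against 0 with DESeq2, 2 with limma-voom and 1 with limma-trend, with log2 fold changes of 0.23 for Vpreb2 (adjusted p = 0.0967), 0.26 for Igll1 (0.185), −0.16 for Vpreb3 (0.286) and 0.0067 for Vpreb1 (0.97). Vpreb2 was called higher without KO replicate 4 and Igll1 without WT replicate 3. The partners of the receptor at the cell surface and just below it, 11 genes, held 4 called higher, 3 lower and 4 neither. Cr2, a complement receptor of mature B cells, had 161, 287 and 246 counts in KO and 38, 29 and 23 counts in WT (log2 fold change 2.41, SE 0.26, edgeR adjusted p = 0.000652). Blnk, an adaptor below the receptor, fell by 0.91 on the log2 scale (edgeR adjusted p = 0.000489), and the inhibitory Fc receptor gene Fcgr2b fell by 1.06 (edgeR adjusted p = 0.000555). Without WT replicate 4 the number called higher was 2.

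Of the genes for antibody secretion, 14 were tested, with 3 called higher in KO, 4 lower and 7 neither, and a median log2 fold change of −0.11. Xbp1, the factor that expands the secretory pathway of plasma cells, averaged 115 ± 19.2 CPM in KO and 205 ± 37.4 CPM in WT (log2 fold change −0.83, SE 0.16, edgeR adjusted p = 0.00548). Derl3 and Edem1, which act in the disposal of misfolded proteins of the endoplasmic reticulum, fell by 1.24 and 0.82 on the log2 scale (edgeR adjusted p = 0.00882 and 0.00115). Slamf7, a surface receptor abundant on plasma cells, averaged 89.3 ± 9.45 CPM in KO and 39.6 ± 4.33 CPM in WT (log2 fold change 1.17, SE 0.12, edgeR adjusted p = 0.000428). Among plasma cell markers, 1 of 4 tested of 5 was called, with summed levels of 45.6 to 60.8 CPM in KO and 48.5 to 49.1 CPM in WT. The gene called was Prdm1, which encodes Blimp-1, at 4.67 ± 0.226 CPM in KO and 1.62 ± 0.958 CPM in WT (log2 fold change 1.54, SE 0.36, edgeR adjusted p = 0.0112). Jchain, which joins IgM and IgA into polymers, averaged 22.7 ± 8.94 CPM in KO and 21.6 ± 4.05 CPM in WT (log2 fold change 0.073, SE 0.29, edgeR adjusted p = 0.846). Sdc1, the plasma cell surface marker CD138, had a log2 fold change of 0.086 (SE 0.18, edgeR adjusted p = 0.712), and Tnfrsf17 had at most 2 counts in any library. Mzb1, a chaperone of secreted antibody, had a log2 fold change of −0.40 (SE 0.15, edgeR adjusted p = 0.0579) and was called lower without WT replicate 1 (adjusted p = 0.0368). Mature B markers summed to 161 to 185 CPM in KO and 450 to 575 CPM in WT, with 2 of 6 tested of 7 called higher and 2 lower. Without KO replicate 3 both counts were 1, the count called lower was also 1 without KO replicate 2 or KO replicate 4, and it was 3 without WT replicate 3 or WT replicate 4. Of these, Cd40, a receptor for help from T cells, rose by a log2 fold change of 1.23 (SE 0.33, edgeR adjusted p = 0.0184), a call it lost without KO replicate 3 (adjusted p = 0.0579).

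The leading kappa V segment was Igkv4-51 in KO replicate 2 and Igkv14-111 in KO replicates 3 and 4, at 12.8% to 15.6% of kappa V counts, against Igkv3-4 in all 3 WT libraries, at 27.2% to 66.9%. WT replicate 3, in which Igkv3-4 took 66.9%, also had the highest Igkc level and, without Iglc3 counted, the highest kappa to lambda ratio. The leading heavy-chain segment held 25.8% to 35.0% of heavy V counts in KO and 26.4% to 38.3% in WT. The libraries of each genotype therefore shared a leading heavy V segment while differing from the other genotype in it.

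Over the 6 libraries, likeness of pattern to Ighm and to Igkc was ranked by Pearson's r of log2 CPM among 12020 protein-coding genes. For Ighm the nearest genes were Ndufa10 (r = 0.999), Lsm6 (r = 0.998), Dtnbp1 (r = 0.997), Wdr60 (r = 0.996) and Ddx19a (r = 0.995). For Igkc they were Aplp2 (r = 0.985), Ring1 (r = 0.959), Rsph9 (r = 0.956), Ghitm (r = 0.952) and Dnajb11 (r = 0.949). All values come from the same 6 libraries, whose Ighm levels fall apart by genotype, and the highest of so many r values are a description of these libraries.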

How the data were processed

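The deposited table gives the authors' whole-number counts per Ensembl gene with symbols and exonic lengths for 6 libraries, with GRCm38 (mm10) named in the submitters' processing notes. The sources used here give no aligner or counter. Although named for FPKM and TPM, 2 more of the authors' tables hold CPM: all 332922 values were whole reads within a tolerance of 0.001, a share of 100%, and the test on these recovered reads called 7599 genes. The authors' comparison table gives a log2 fold change, a fold as a ratio, and p-values with FDR from DESeq2 per the file headers. Another 18 per-sample columns, which repeat these values, were not used.

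Members and lists were chosen with earlier results of these data known. Genes were kept by filterByExpr (minimum count 10, minimum total 15), scaled by TMM and tested with the edgeR 4.0.16 quasi-likelihood F test on genotype alone in R 4.3.3, with Benjamini-Hochberg adjustment over all 14481 tested genes and a threshold of 0.05. The procedure was tested on simulated data. Shares and ratios were computed from counts, with exact (Clopper-Pearson) 95% intervals that cover counting error only, since reads are not independent molecules, and compared by two-sided exact permutation tests over libraries. A count of 0 allows up to 3 counts, 0.0978 to 0.182 CPM. Levels per kilobase use the authors' exonic lengths. Sequences and 50-base words come from GENCODE transcripts on GRCm38.

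Named were all members, up to 4 genes of smallest p per list (all genes of lists of 5 or fewer), Mir182, overlapping genes, the 5 protein-coding genes most like Ighm and like Igkc, and the leading V segments, the last chosen after their values were seen. Rag1 and Rag2 were named as well, as the members of their list that are no transcription factors. The list gene H2afx was not matched. A few genes chosen this way are not reported here. Alternatives were other normalisations, filters, tools (DESeq2 1.42.0, limma 3.58.1) and lengths, a block for the replicate number, and each library left out in turn. Counts of replicate pairs differed beyond sampling noise, with a chi-square per degree of freedom of at least 11.2.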

Additional observations from a re-analysis of the deposited data

How the results depend on the processing

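Ighg2b and Ighg2c were called higher under all 14 alternatives, with log2 fold changes of 5.26 to 5.78 (adjusted p 2.87e-154 to 0.000321) and 1.30 to 2.04 (adjusted p 4.26e-05 to 0.043). Of the 14, the fit on reads recovered from CPM used the same counts as the main fit and could only repeat it. The number of members called higher was 4 with no filter, with DESeq2, with limma-voom with quality weights and with the replicate block, and 2 to 3 when a library was left out. The number called lower was 1 with limma-voom and 2 with the block, and 0 to 1 when a library was left out. Ighm and Igha were the added calls with no filter (adjusted p = 0.0365 and 0.0318) and with DESeq2 (adjusted p = 0.0178 and 0.0425). Over all alternatives the adjusted p ran from 0.00474 to 0.305 for Ighm and from 0.0174 to 0.343 for Igha.

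Only replicates 3 and 4 share a number between genotypes, and the labels do not pair them (correlations of deviations 0.0272 and 0.162). With the block, 6767 genes were called, Igkc became lower (log2 fold change −0.70, adjusted p = 8.29e-05), Iglc2 lower (−1.11, adjusted p = 0.0494), Ighg3 higher (1.58, adjusted p = 0.024) and Ighg1 turned to 1.39 (adjusted p = 0.0108). Limma-trend called 8094 genes, 4631 higher and 3463 lower in KO, against 3466 higher and 4133 lower with edgeR, and called Ighm (0.39, adjusted p = 0.0376).

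Several genes with few counts changed sign, as did Ighd. Iglc1 was at 0.029 with no filter, 0.045 with limma-voom, 0.10 with limma-trend and 0.47 with the block, and at −0.44 to 0.63 when a library was left out. Ighg1 was at 2.60 with limma-voom (adjusted p = 0.013) and 0.080 with limma-trend, and at −1.06 to 1.03 when a library was left out. In such fits Ighd ran from −0.063 to 0.15 and Ighg3 from −0.65 to 1.54, while Igkc kept its sign at −0.51 to −0.066. The log2 kappa to lambda difference was −0.048 per exonic kilobase, 0.59 with Ighe, Iglc3 and Iglc4 counted, and −0.72 to 0.83 when a library was left out. The cause was not tested. The IgM, IgD and switched shares, the constant gene share and the heavy to light ratio kept their direction in 9 alternatives each. The shortest transcript length and the reads recovered from CPM were chosen after seeing the data. Ighg1, Ighg3, Iglc1 and Iglc2 had at most 107 counts in any library.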
